A study of Mus musculus with 3 samples.

Results

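Accessible chromatin was examined at the loci of 7 Sox genes used in neural development, Sox1, Sox3, Sox21, Sox4, Sox11, Sox5 and Sox6, in mouse embryonic stem cells that expressed a tagged form of their relative Sox2 and in control cells. The members were the ATAC-seq peaks whose midpoint lay inside one of these genes or within 50 kb of it (GRCm38), which gave 97 of the 88898 peaks listed for Halo-Sox2, 95 of the 83995 for Halo-Sox2a and 79 of the 72638 for the control. Merged wherever peaks of any list overlapped, these formed 148 of the 130664 accessible regions of the series. The outermost peak inside the window was a control peak at Sox4, 49.8 kb from the gene, with a score of 34. The nearest outside the window were a Halo-Sox2 peak 52.2 kb from Sox3 with a score of 80 and a Halo-Sox2a peak 52.3 kb from Sox6 with a score of 1074.

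ATAC-seq marks open DNA by the insertion of adapters with the Tn5 transposase. All 3 lines derived from CGR8, a mouse embryonic stem cell line, and were grown on gelatin with serum, leukemia inhibitory factor, the GSK3 inhibitor CHIR99021 and the MEK inhibitor PD184352. SES4.1 expressed Sox2 fused to the Halo tag after 20 h of 300 ng/mL doxycycline, SES5.1 expressed Halo-Sox2a, a form the labels name without describing it, after 20 h of 70 ng/mL, and SES11 was the control, for which the labels name no transgene, no doxycycline dose and no sort. Both transgene lines were stained with 50 nM of the Halo-SiR dye and sorted within a common intensity gate, so the doses differed and the gate was shared. Each line gave 1 library, so no value below has a replicate error, no test between conditions was possible, and line, dose, sort and library cannot be told apart. The depth of the libraries is unknown.

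Each deposited list gives a whole-number score per peak that belongs to the authors and has no stated scale. Scores were ranked only within a list, and a percentile is the position of a peak in its own list, 100 being the highest score and 50 the middle of that list. Because the lists differ in length and their depth is unknown, percentiles are set side by side as positions and do not measure a change in openness. The highest peak over the Sox2 gene itself had rank 16278 with Halo-Sox2, rank 2 with Halo-Sox2a and rank 25738 in control cells. These ranks do not settle whether the labels are right, and the cause of their difference was not tested. A peak lay within 1 kb of an end of 4 of 6 pluripotency genes with Halo-Sox2 (not Nanog or Esrrb) and of 5 of 6 in both other lists (not Esrrb). The same held in every list for all 4 mesendoderm genes, all 3 fibroblast genes and 3 of 5 primitive endoderm genes, and for 4, 4 and 3 of 5 trophoblast genes, so markers of other cell types had such peaks too. The share of all coding genes with such a peak was not computed, so these counts have no background.

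Sox proteins bind DNA through an HMG box that recognises short AT-rich words related to ACAAAG and bends the helix. Group B1 (Sox1, Sox2 and Sox3) keeps neural progenitors undifferentiated and Sox21, of group B2, counteracts it. Group C (Sox4 and Sox11) drives neuronal differentiation, and group D (Sox5 and Sox6), which lacks a known transactivation domain and dimerises through a coiled coil, times the fate of neurons and glia as well as of cartilage. Sox2 also belongs to the core pluripotency network of embryonic stem cells, where it often binds beside Oct4, whose site is the octamer.

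The RefSeq promoter table (GRCm38.p6) held 11 windows of 300 bp, running from 250 bp before to 50 bp after a start site, for 6 of the 7 genes, and none was matched for Sox3. All 4 windows of the compact genes Sox21, Sox1, Sox11 and Sox4 were covered by a peak in every list, counting an overlap of 1 bp. None of the 7 windows of Sox5 and Sox6 was. Those 7 lie at starts inside the 2 genes and not at their outermost starts, where a region was held by all 3 lists. Over all 32851 windows of the table, 42.0% were covered in all 3 lists. The 250 bases upstream of the start of the covered windows are shown 5′ to 3′ with each CpG in capitals, because a peak of every list reached these windows. Their positions are chr14:118237031-118237280 (minus strand) for Sox21, chr8:12395269-12395518 (plus) for Sox1, chr12:27342719-27342968 (minus) for Sox11 and chr13:28953700-28953949 (minus) for Sox4. At Sox4 the peaks ended at 28953854 (Halo-Sox2), 28953874 (Halo-Sox2a) and 28953855 (control). The first bases printed for Sox4 therefore lie outside every peak.
Sox21: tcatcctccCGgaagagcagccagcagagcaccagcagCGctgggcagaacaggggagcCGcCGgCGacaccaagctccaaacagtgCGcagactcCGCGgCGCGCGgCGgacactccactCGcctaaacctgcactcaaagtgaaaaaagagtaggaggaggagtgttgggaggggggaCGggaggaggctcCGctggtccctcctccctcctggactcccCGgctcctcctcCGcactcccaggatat
Sox1: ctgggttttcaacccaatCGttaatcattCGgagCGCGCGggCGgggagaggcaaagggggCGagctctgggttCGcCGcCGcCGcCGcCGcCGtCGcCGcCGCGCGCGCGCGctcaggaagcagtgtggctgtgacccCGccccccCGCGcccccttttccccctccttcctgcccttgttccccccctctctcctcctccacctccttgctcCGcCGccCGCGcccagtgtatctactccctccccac
Sox11: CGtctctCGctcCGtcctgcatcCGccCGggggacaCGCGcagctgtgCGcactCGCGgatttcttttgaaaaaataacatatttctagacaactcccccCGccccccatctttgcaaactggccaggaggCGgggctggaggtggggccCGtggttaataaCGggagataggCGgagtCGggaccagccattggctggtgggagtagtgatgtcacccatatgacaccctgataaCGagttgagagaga
Sox4: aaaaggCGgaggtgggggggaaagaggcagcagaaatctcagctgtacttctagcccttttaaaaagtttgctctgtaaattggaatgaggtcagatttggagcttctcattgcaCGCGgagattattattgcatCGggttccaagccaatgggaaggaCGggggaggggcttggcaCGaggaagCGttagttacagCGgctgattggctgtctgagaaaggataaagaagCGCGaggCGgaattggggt

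In the whole 300-bp windows, the observed to expected CpG ratio was 0.687 for Sox21, 1.07 for Sox1, 0.817 for Sox11 and 0.679 for Sox4, against a median of 0.384 over the table. Windows with a ratio of at least 0.6, a limit chosen after these values were seen, were covered in all 3 lists in 88.4% of 11765 cases, against 16.2% of the 21086 windows under it. Of the 5 member windows above the limit 4 were covered, and of the 6 below it none was covered in all 3 lists. The exception above it was the window of Sox6 at its outermost listed start (chr7:116038695-116038994, ratio 0.672), which ended short of a peak that began at 116039372.

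The windows of Sox5 and Sox6, all at starts inside these genes, carried the SOX words. The words searched on both strands were ACAAAG, the longer AACAAAG that contains it, CATTGT, and the octamer ATTTGCAT, which 18.7%, 5.85%, 12.6% and 1.74% of all 300-bp promoter windows hold. None of the 4 covered windows held a SOX word, and the single octamer among the 11 windows lay in that of Sox1, 19 bp after the start. The share of all windows that hold at least 1 of the SOX words was not computed. GC content was 52.0 to 70.7% in the covered windows, against 39.7% in the Sox5 window and 36.7 to 63.3% in the Sox6 windows. Whether base content accounts for the words was not tested. The Sox5 window and 5 of the 6 Sox6 windows held at least 1 SOX word. Upstream sequences of 3 of them are shown with those words in capitals on either strand, because they hold SOX words and had a peak in 1 list at most. They are chr6:143947107-143947356 (minus) for a start inside Sox5, chr7:115995087-115995336 (minus) for a start inside Sox6, which held the most words, and chr7:116031048-116031297 (minus) for another Sox6 start, which was touched by a Halo-Sox2 peak at percentile 33.1 and by no peak of the other lists.
Sox5 inner start: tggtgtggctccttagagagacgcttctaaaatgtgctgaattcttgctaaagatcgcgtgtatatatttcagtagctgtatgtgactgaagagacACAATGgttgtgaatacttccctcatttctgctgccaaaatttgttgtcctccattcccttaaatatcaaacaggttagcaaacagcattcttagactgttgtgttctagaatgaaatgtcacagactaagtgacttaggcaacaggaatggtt
Sox6 inner start: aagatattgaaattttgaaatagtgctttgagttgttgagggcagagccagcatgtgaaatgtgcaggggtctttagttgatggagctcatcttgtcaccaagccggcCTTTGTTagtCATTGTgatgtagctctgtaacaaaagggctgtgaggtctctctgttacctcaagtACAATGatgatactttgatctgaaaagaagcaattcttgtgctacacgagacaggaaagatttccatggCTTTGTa
Sox6 second start: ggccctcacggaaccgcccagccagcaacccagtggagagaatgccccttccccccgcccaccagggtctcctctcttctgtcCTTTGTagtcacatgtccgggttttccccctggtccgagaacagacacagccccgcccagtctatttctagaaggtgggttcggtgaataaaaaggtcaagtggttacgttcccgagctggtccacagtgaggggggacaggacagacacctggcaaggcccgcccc
A word in a window is a description of the letters and shows no binding.

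At the starts, all 7 genes had a region held by all 3 lists over or beside the outermost start, or over the end with the higher coordinate in the case of Sox3. Positions in the lists differed most at Sox21, Sox3 and Sox1, the group B genes.

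**Figure D1:**
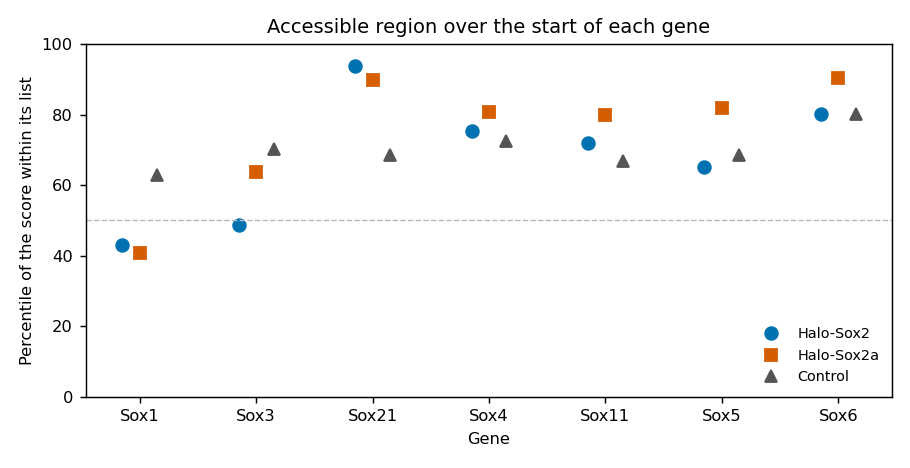
Percentile of the highest peak in the region over the start of each gene, within its own list, for the 3 libraries (Sox3: the region over its higher-coordinate end). Each point is 1 peak of 1 library; the dashed line is the middle of a list. Sox21 stands at 93.6 with Halo-Sox2, 89.8 with Halo-Sox2a and 68.6 in the control, and Sox1 at 43.1, 40.9 and 62.8.

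Sox21 had the highest start region of the 7 in the Halo-Sox2 list. The region (chr14:118235910-118237505, 1596 bp, also over the non-coding gene Gm4675) scored 677 with Halo-Sox2, at rank 5656 (percentile 93.6). It scored 375 with Halo-Sox2a, at rank 8584 (89.8), and 135 in control cells, at rank 22727 (68.6). Both transgene libraries thus placed it among their upper peaks and the control lower, by 25.0 percentile points from Halo-Sox2.

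Sox1 showed the other order. Its start region (chr8:12394995-12396159, also inside the non-coding Sox1ot) stood at percentile 43.1 with Halo-Sox2 (score 123), 40.9 with Halo-Sox2a (score 80) and 62.8 in the control (score 115). At Sox3 the region over the higher-coordinate end (chrX:60892492-60894611) stood at 48.8, 63.6 and 70.4, with scores of 144, 147 and 141. The control position was the highest at both genes. Over the whole series, regions held by all 3 lists had a median of 61.5 with Halo-Sox2 against 68.0 in the control, so a lower Halo-Sox2 position is not particular to these genes. The Halo-Sox2a median, 72.3, was above that of the control.

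In groups C and D the Halo-Sox2a position was the highest of the 3 at each start. Sox4 (chr13:28952224-28953874) stood at 75.3 with Halo-Sox2, 80.9 with Halo-Sox2a and 72.5 in the control. Sox11 (chr12:27340964-27343871) stood at 72.0, 79.9 and 67.0. The outermost Sox5 start (chr6:144781292-144783332) stood at 65.2, 82.0 and 68.6. The outermost Sox6 start (chr7:116039372-116040799) stood at 80.3, 90.4 and 80.2. Regions held by all 3 lists had median positions of 61.5, 72.3 and 68.0 over the whole series, so the Halo-Sox2a position was the highest of the medians there too.

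The first question was which peaks of the transgene lists had no control counterpart. At the 7 loci this held for 50 of the 97 peaks found with Halo-Sox2, counting an overlap of 1 bp as shared (51.5%, with 41.7 to 61.2% as the 95% Wilson interval), against 49.3% over the whole list. For Halo-Sox2a it was 35 of 95 (36.8%, 27.8 to 46.9%), against 33.4%. Both shares were near those of the whole lists, and the intervals cover counting error only.

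The reverse and direct comparisons were also near their backgrounds. Of 79 control peaks, 31 (39.2%, 29.2 to 50.3%) had no Halo-Sox2 peak, against 37.5%, and 19 (24.1%, 16.0 to 34.5%) had no Halo-Sox2a peak, against 22.0%. Between the proteins, 40 Halo-Sox2 peaks (41.2%, 32.0 to 51.2%) had no Halo-Sox2a peak, against 38.7%, and 36 Halo-Sox2a peaks (37.9%, 28.8 to 47.9%) had no Halo-Sox2 peak, against 35.4%. The doses of the lines differed, so this comparison is of libraries and not of proteins at a matched dose. In all 6 of these comparisons the counting interval of the Sox loci held the value of the whole list.

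Sorted by the lists that held them, 44 of the 148 regions (29.7%) were held by all 3, against 32.1% over the series. Regions of Halo-Sox2 alone numbered 37 (25.0%, against 24.3%), those of Halo-Sox2a alone 22 (14.9%, against 12.2%) and those of the control alone 17 (11.5%, against 10.2%). Regions of both proteins without the control numbered 13 (8.78%, against 8.95%). Halo-Sox2a and the control alone shared 14 (9.46%, against 10.3%), while Halo-Sox2 and the control alone shared 1 (0.676%, against 1.90%), a region inside Sox5. Single genes held from 5 regions (Sox3) to 58 (Sox5), so their shares carry a wider counting error than the total. Differences between the genes were not tested.

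**Figure D2:**
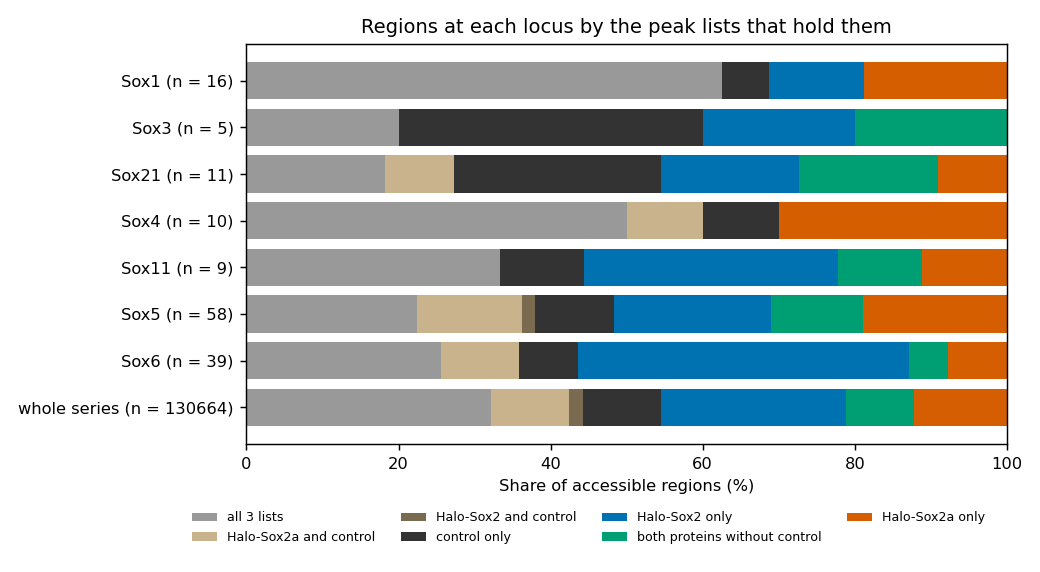
Share of the accessible regions at each locus, in percent, by the peak lists that hold them, with the number of regions beside each gene and the whole series at the bottom. Regions of Halo-Sox2 alone range from none of 10 at Sox4 to 17 of 39 at Sox6, and regions of all 3 lists from 18.2% at Sox21 to 62.5% at Sox1.

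The groups differ in gene length, and group D, the long genes, had the highest share. There, 38 of 63 Halo-Sox2 peaks (60.3%, 48.0 to 71.5%) had no control peak, against 8 of 22 (36.4%, 19.7 to 57.0%) in group B and 4 of 12 (33.3%, 13.8 to 60.9%) in group C. Loci of all 227 coding genes of at least 500 kb, the class that holds Sox5 and Sox6, had 61.2% of 5677 Halo-Sox2 peaks without a control peak. Loci of the 7938 coding genes under 10 kb, the class of the other 5, had 35.9% of 21089. The values of the Sox groups lay close to those of genes of their length, a comparison added after the group values were seen.

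For Halo-Sox2a the same shares were 23 of 59 (39.0%, 27.6 to 51.7%) in group D, 7 of 22 (31.8%, 16.4 to 52.7%) in group B and 5 of 14 (35.7%, 16.3 to 61.2%) in group C. All loci of long genes gave 33.8% and all loci of short genes 28.1%. The groups overlapped in their counting intervals for both proteins.

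**Figure D3:**
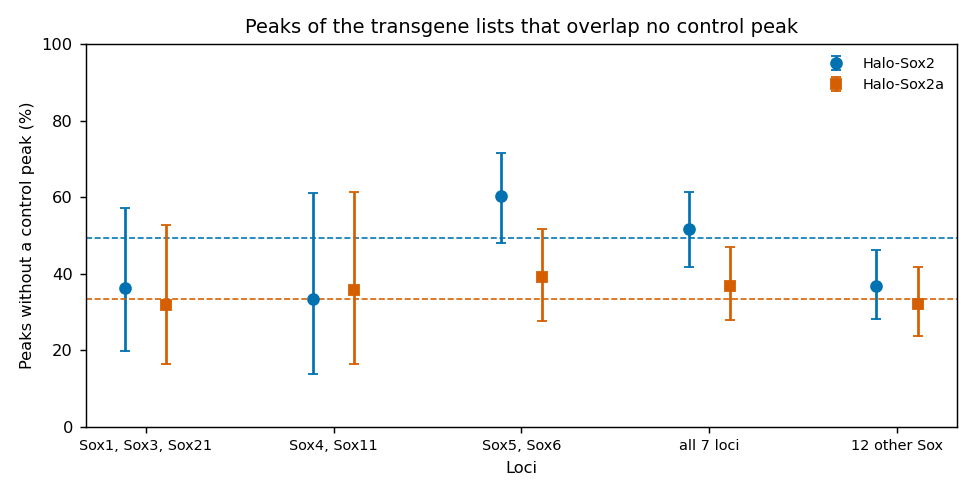
Percent of Halo-Sox2 (circles) and Halo-Sox2a (squares) peaks that overlap no control peak at the 3 groups of Sox genes, all 7 loci and 12 other Sox genes, with 95% Wilson intervals (counting error only). Dashed lines give the shares over the whole lists, 49.3% and 33.4%. The 7 loci sit near these lines, and the 12 other Sox genes stand at 36.8% for Halo-Sox2 and 32.0% for Halo-Sox2a. Without Sox5 and Sox6, not drawn, the member loci give 35.3% and 33.3%.

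Set beside the rest of the family, the 12 other mouse Sox genes examined (Sox2, Sox7 to Sox10, Sox12 to Sox15, Sox17, Sox18 and Sox30) had 39 of 106 Halo-Sox2 peaks (36.8%, 28.2 to 46.3%) and 32 of 100 Halo-Sox2a peaks (32.0%, 23.7 to 41.7%) without a control peak. The counting intervals of both sets of Sox genes overlapped for each protein, and the difference between the sets was not tested. By gene, the Halo-Sox2 list had more peaks than the control at 4 of the 7 loci, as many at 2 and fewer at 1. The counts were 9, 0 and 3 of the 12 other Sox genes. The whole Halo-Sox2 list is also the longer, with 88898 peaks against 72638 in the control, and no such counts were made over all coding loci.

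The loci also differed in how densely they were covered. Sox1 held 15.4 regions per 100 kb, more than 94.6% of 21887 coding loci, whose median was 7.58. Sox21 held 10.6, Sox4 9.54 and Sox11 8.30, all above that median. Sox6 held 5.82, Sox5 5.50 and Sox3 4.90, all below it.

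Within their lists the member peaks stood near the middle. The median percentile was 53.6 with Halo-Sox2 (quartiles 31.9 and 80.4), 44.9 with Halo-Sox2a (21.0 and 66.4) and 46.4 in control cells (23.7 and 69.4). Peaks above percentile 90 numbered 12 of 97, 9 of 95 and 8 of 79. By gene, the Halo-Sox2 medians ran from 39.8 at Sox1 to 64.2 at Sox5.

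Among the 44 regions of all 3 lists, the Halo-Sox2 percentile was at least 25 points above the control in 8 (18.2%, against 10.2% of all such regions) and at least 25 below in 10 (22.7%, against 19.2%). For Halo-Sox2a the counts were 7 above (15.9%, against 12.3%) and 5 below (11.4%, against 5.57%). With the lists shortened to equal size that balance turned, to 6 of 42 above (against 9.44%) and 7 below (against 8.03%). The upward Halo-Sox2 differences fell at Sox5 (3), Sox6 (3), Sox1 (1) and Sox21 (1), and 5 of the 10 downward ones fell at Sox1.

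The 13 regions held with both proteins and not in the control stood high in the Halo-Sox2 list. Their median Halo-Sox2 percentile was 83.8, against 50.0 for all 11695 regions of that kind, and 6 of the 13 (46.2%, 23.2 to 70.9%) were above percentile 90, against 12.6%, a limit chosen after the values were seen. These 6 lay at Sox5 (3), Sox6 (2) and Sox21 (1). Of the 13, 9 lay at the long genes Sox5 and Sox6, and no such value was made for long genes alone. The interval counts regions of the same gene as separate. The Halo-Sox2a percentiles of the 13 were lower, with a median of 50.2, against 38.1 for all. None of the 13 was above 90, against 1.05% of all. The 37 regions of Halo-Sox2 alone had a median of 50.0, against 38.7, with none above 90, against 4.01%, and the 22 of Halo-Sox2a alone a median of 11.5, against 19.3.

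The 72 regions gained over the control lay a median of 10.0 kb from the nearest control peak (range 0.122 to 138 kb), against 9.53 kb for all 59470 gained regions of the series. Of the 72, 2 lay within 500 bp of a control peak, against 3.36% of all, so the distances were near those of the series. A peak missing from a list may still lie just under that list's threshold.

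Sox21, the group B2 antagonist of the B1 proteins, had 6 peaks in each list. Of its 11 regions 2 (18.2%) were held by all 3, against 32.1% over the series and 42.5% at loci of genes under 10 kb. The gained region that stood highest with Halo-Sox2 (chr14:118230281-118231884, 1604 bp) lay 5.95 kb downstream of the start, beyond the gene's end and outside any gene of the table. There the Halo-Sox2 peak had a score of 812 at rank 3257 (percentile 96.3), above that of the start itself. The Halo-Sox2a peak had a score of 127 at rank 34876 (58.4), and the nearest control peak was 2.66 kb away. A second region of both proteins (chr14:118253238-118253952), chosen after its values were seen, stood at 47.5 and 59.6.

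Regions of 1 list at Sox21 all stood below that strongest Halo-Sox2 position. The highest of Halo-Sox2 alone (chr14:118194619-118195571) stood at 76.4, 41.9 kb downstream. The only one of Halo-Sox2a alone (chr14:118228377-118228623) stood at 6.31. The highest of the control alone (chr14:118235107-118235657), inside the gene and 1.65 kb from the start, stood at 44.3. The coding gene Gm9376 also reaches into this window.

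Sox1, the B1 gene used as an early neural marker, was the locus most shared between the lists. It had 13 Halo-Sox2, 14 Halo-Sox2a and 12 control peaks. Of its 16 regions 10 (62.5%) were held by all 3, against 32.1% over the series and 42.5% at loci of genes under 10 kb. Of the 13 Halo-Sox2 peaks 2 (15.4%, 4.33 to 42.2%) lacked a control peak, against 49.3% over the list and 35.9% at such genes. Of the 14 Halo-Sox2a peaks 3 (21.4%, 7.57 to 47.6%) lacked one, against 33.4% and 28.1%. The widest spread was at chr8:12429801-12430812, inside Sox1ot and 34.8 kb downstream of the start, with percentiles of 84.1 (Halo-Sox2), 74.4 (Halo-Sox2a) and 37.7 (control) and scores of 436, 206 and 60. It was the 1 shared Sox1 region where the Halo-Sox2 position was at least 25 points above the control, while 5 were at least 25 below. The highest region of Halo-Sox2 alone (chr8:12379063-12379423), 16.3 kb upstream, stood at 52.5. That of Halo-Sox2a alone (chr8:12431040-12431247) stood at 21.0 and that of the control alone (chr8:12405872-12406077) at 0.568.

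Sox3, the X-linked B1 gene, had 3 Halo-Sox2, 2 Halo-Sox2a and 3 control peaks. Besides the shared region at its end, both proteins had a low peak inside the gene (chrX:60891864-60892253, percentiles 3.18 and 14.7). Halo-Sox2 alone had a peak at percentile 79.4 outside it (chrX:60911608-60912481, score 370), and the nearest control peak was 12.7 kb from there. The higher of the 2 control-only regions (chrX:60868422-60868807) stood at 51.2.

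In group C, Sox4 was the locus without a Halo-Sox2 gain. All 5 of its Halo-Sox2 peaks overlapped a control peak (0 without, Wilson interval 0 to 43.4%). Over the list 49.3% had no control peak, and at loci of genes under 10 kb 35.9%. The Sox4 locus had 9 Halo-Sox2a and 7 control peaks. Its 3 regions of Halo-Sox2a alone were of low rank, the highest (chr13:28930277-28930581) at 22.9. Its 5 shared regions differed by less than 25 points from the control. The widest spread, at chr13:28947935-28948762 just beyond the gene's end, was 37.2, 53.7 and 38.6. The only control-only region (chr13:28899066-28899252) stood at 15.3.

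Sox11, also of group C, had 7 Halo-Sox2, 5 Halo-Sox2a and 5 control peaks. Of the Halo-Sox2 peaks 4 (57.1%, 25.0 to 84.2%) had no control peak, against 49.3% over the list and 35.9% at loci of genes under 10 kb. The region of both proteins (chr12:27311523-27312505), inside the non-coding Gm52005 and 30.7 kb downstream of the start, stood at 77.9 with Halo-Sox2 (score 352) and 68.1 with Halo-Sox2a (score 168), 8.07 kb from the nearest control peak. The region highest in the Halo-Sox2 list (chr12:27320357-27321284), chosen after its values were seen, was shared and stood at 98.1, 93.6 and 96.6. The widest spread was inside the gene (chr12:27335593-27336076), at 36.5, 55.5 and 19.2. Regions of Halo-Sox2 alone (chr12:27364139-27364518, 50.0), Halo-Sox2a alone (chr12:27308944-27309280, 35.4) and the control alone (chr12:27389602-27389881, 22.5) were of middle to low rank.

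**Figure D4:**
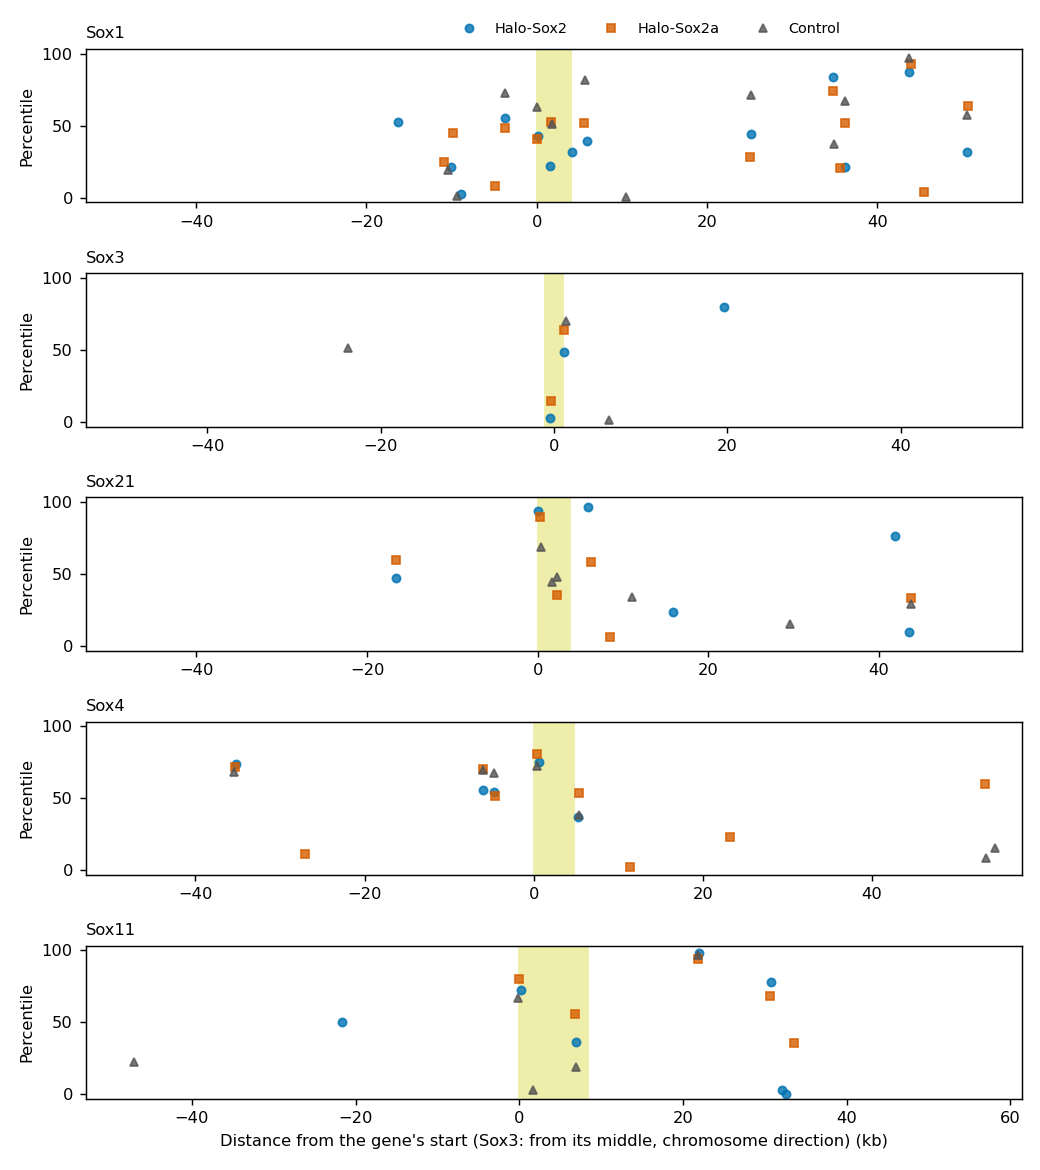
Percentile within its list (y axis) of every peak at the 5 compact genes against its distance in kb from the gene's start, or from the gene's middle for Sox3. The gene body is shaded, circles are Halo-Sox2, squares Halo-Sox2a and triangles control peaks, 1 library each. At Sox21 a Halo-Sox2 peak at 96.3 lies past the gene's end with no triangle beside it, and at Sox4 every circle has a triangle near it.

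Sox5, a group D gene of 954 kb, had 33 Halo-Sox2, 40 Halo-Sox2a and 29 control peaks in 58 regions, 55 of them inside the gene. The strongest gained region (chr6:144312808-144313740, 469 kb into the gene) had a Halo-Sox2 score of 1293 at rank 372 (percentile 99.6) and a Halo-Sox2a score of 362 at rank 9175 (89.0). The nearest control peak was 13.2 kb away. It was the highest Halo-Sox2 peak of all 7 loci.

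Of the 6 other regions of both proteins inside Sox5, a pair stood above percentile 90 with Halo-Sox2 and much lower with Halo-Sox2a, and both were chosen after their values were seen. The first, at chr6:144154872-144155600, stood at 97.8 with Halo-Sox2 (score 930) and 28.2 with Halo-Sox2a (score 56), 95.1 kb from any control peak. The other, at chr6:144525913-144526838, stood at 95.3 and 50.2. The highest region of Halo-Sox2 alone (chr6:144039426-144039976) stood at 85.9 with a score of 467. Of Halo-Sox2a alone (chr6:144644689-144645323) the highest stood at 50.2, and of the control alone (chr6:144387751-144388117) at 69.1.

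Among the shared regions of Sox5, the widest spread was at chr6:144264091-144264870, 518 kb into the gene. Its scores were 725, 442 and 50, at percentiles 94.8 (Halo-Sox2), 92.8 (Halo-Sox2a) and 29.3 (control), so it stood near the top of both transgene lists and in the lower part of the control list. At chr6:143941277-143941709, named after its values were seen, the positions were 99.1, 83.7 and 65.2. At chr6:144370518-144371264, chosen in the same way, the order was the other, with 38.7, 85.8 and 90.3.

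The longest stretch of the Sox5 body without a control peak measured 282 kb (chr6:143968451-144250731). It held 6 Halo-Sox2 peaks at percentiles 41.8 to 97.8 (median 83.1) and 5 Halo-Sox2a peaks at 0.379 to 46.5 (median 28.2). The longest stretches free of a peak were 138 kb in the Halo-Sox2a list and 117 kb in the Halo-Sox2 list. These stretches were picked from the values and are given as a description.

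Sox6, the other group D gene, of 570 kb, had more peaks with Halo-Sox2 (30) than with Halo-Sox2a (19) or in the control (17). Loci of all long genes also held more Halo-Sox2 peaks (5677) than Halo-Sox2a peaks (4250). Of the 30 Halo-Sox2 peaks at Sox6, 19 (63.3%, 45.5 to 78.1%) had no control peak. That compares with 49.3% over the list and 61.2% at long genes. No Halo-Sox2a peak overlapped 18 of the 30 (60.0%, 42.3 to 75.4%), against 38.7% over the list, and this share was not computed for long genes alone. At loci of all long genes, 34.7% of regions were of Halo-Sox2 alone and 2.17% of Halo-Sox2 and the control. Regions there with both proteins made up 7.96% without the control and 24.6% in all 3 lists. Of the 19 Halo-Sox2a peaks, 5 (26.3%, 11.8 to 48.8%) lacked a control peak, against 33.4% over the list and 33.8% at long genes. Regions of Halo-Sox2 alone made up 17 of 39 (43.6%), against 34.7% at all loci of long genes. At Sox5 they made up 12 of 58 (20.7%), and the difference between the pair of group D genes was not tested.

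The gained region of Sox6 that stood highest with Halo-Sox2a (chr7:115501403-115502259, also inside the non-coding Gm51455, 539 kb into the gene) stood at 97.4 with Halo-Sox2 (score 889, rank 2290) and 88.3 with Halo-Sox2a (score 350, rank 9814), 11.5 kb from the nearest control peak. The other region of both proteins (chr7:115721324-115722352), named after its values were seen, stood higher with Halo-Sox2, at 98.2, and lower with Halo-Sox2a, at 22.9, 61.7 kb from any control peak. The widest spread among shared regions was at chr7:115645034-115646383, with percentiles of 83.2, 48.5 and 15.3 and scores of 422, 97 and 34. The highest region of Halo-Sox2 alone (chr7:115576582-115577423) stood at 84.4, that of Halo-Sox2a alone (chr7:116073070-116073342) at 28.2 and that of the control alone (chr7:115830420-115830678) at 29.3. The coding gene 1110004F10Rik also reaches into this window.

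The longest stretch of the Sox6 body without a control peak measured 163 kb (chr7:115868762-116031396). Wholly inside it lay 3 Halo-Sox2 peaks at percentiles 13.9 to 53.6 and no Halo-Sox2a peak. A further Halo-Sox2 peak (chr7:116031133-116031492, percentile 33.1) ran over its edge. The printed inner and second starts of Sox6, with their SOX words, lie in this stretch. The next longest, of 138 kb, wholly held 3 Halo-Sox2 peaks at 80.4 to 98.2 and 2 Halo-Sox2a peaks at 11.5 and 22.9.

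**Figure D5:**
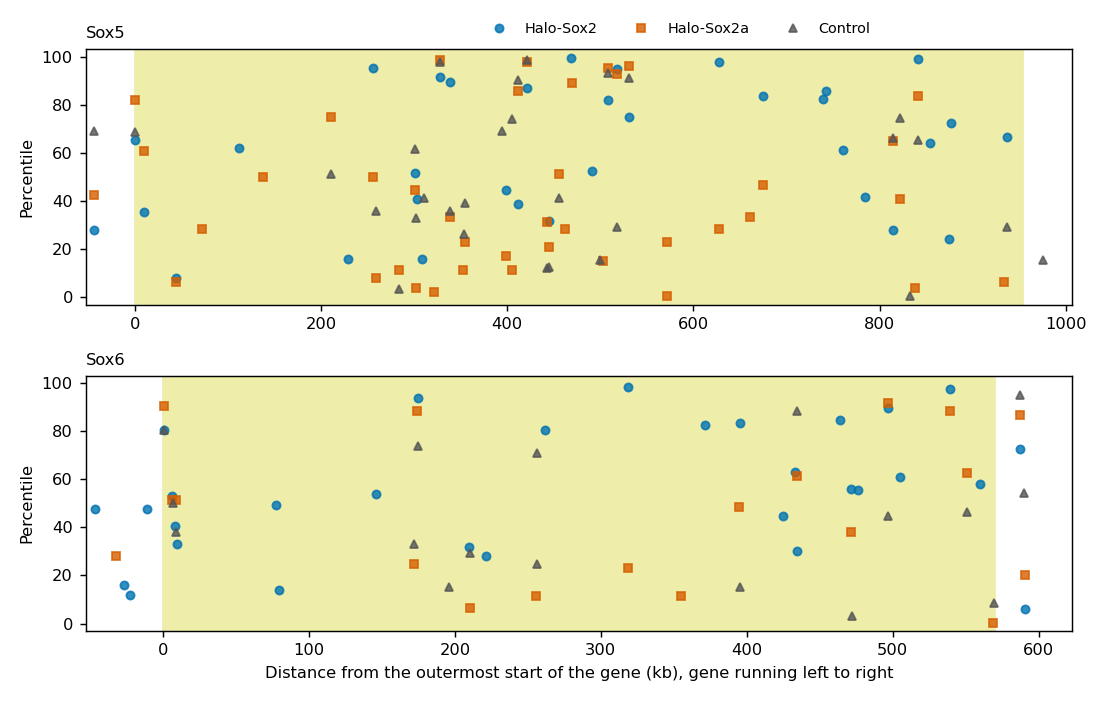
Percentile within its list (y axis) of every peak at Sox5 and Sox6 against its distance in kb from the outermost start, with the gene body shaded and the gene running left to right. Circles are Halo-Sox2, squares Halo-Sox2a and triangles control peaks, 1 library each. In Sox5 the stretch of 282 kb that holds no triangle has circles up to 97.8 and squares up to 46.5.

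Of 1934 other coding genes with at least 20 regions at their loci, those whose split over the 7 combinations of lists was most like that of the pooled Sox loci were Tmem45a, Hydin and Tbc1d1. The shares differed from those of the Sox loci by a sum of 0.0892, 0.101 and 0.111, against a median of 0.435 over the candidates, with 20, 35 and 36 regions behind them and 148 behind the Sox loci. The pooled Sox shares were themselves near those of the series, at 25.0% against 24.3% for Halo-Sox2 alone and 29.7% against 32.1% for all 3 lists. The likeness is therefore not particular to the Sox loci.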

How the data were processed

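ATAC-seq libraries of 3 lines, 1 per line, were read as 75-bp pairs from about 50000 cells per transposition, per the labels' protocols. The submitters' processing notes name STAR, SAMtools, MACS2 3.0.0a7, deepTools 3.3.0, MACS3 and the build mm10, without roles. Peaks were listed per library, since each deposited peak name carries 1 library. The deposited score of a peak has no stated scale, its lowest value is 13 in every list, and the threshold, the filters and any shift of read ends are not given in the sources used here. Depth is unknown.

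Starts were made 1-based. Peaks belonged to a locus by their midpoint (50 kb), were shared at an overlap of 1 bp, and were merged into regions over the 3 lists, where the highest peak of a list stands for it. Tied scores share the best rank, and percentiles use the mean rank. Genes and promoters came from RefSeq tables of GRCm38.p6. The members and lists were chosen with earlier results of these data known. Named regions are those at the start (within 2 kb), the highest of each unshared class (by mean percentile where both proteins hold it), and the shared region of widest spread, and others are said to be chosen after their values were seen. A planned list of other neural genes and the neural marker list are not reported here. The overlap and merging code was tested on simulated data. Wilson intervals use Python 3.11.15, SciPy 1.17.1 and pandas 2.3.3. The alternatives varied the window, the overlap, list size, score limits and loci.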

Additional observations from a re-analysis of the deposited data

How the results depend on the processing

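The 9 main values were each recomputed under 12 alternatives, which gave 108 values. Of these, 10 could not move by construction, since median percentiles do not depend on the overlap and the control list is the shortest, and 91 of the other 98 stayed within the 95% interval of the main value. Without the long Sox5 and Sox6 loci, the share of Halo-Sox2 peaks without a control peak was 35.3% (51.5% with them), without a Halo-Sox2a peak 26.5%, and of Halo-Sox2a peaks without a Halo-Sox2 peak 27.8%, and the median Halo-Sox2a percentile was 51.9. The totals for the 7 loci therefore rest on those 2 genes, which hold 63 of the 97 Halo-Sox2 peaks. With peaks above percentile 50 of every list, 63.0% of the Halo-Sox2 peaks had no control peak, against 50.6% over the list, and 51.9% had no Halo-Sox2a peak, against 40.0%. The cause was not tested. With an overlap of at least 50% of both peaks, 50.6% of the control peaks had no Halo-Sox2 peak, against 50.4% over the list.

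For values added after seeing the data, the group C share of 33.3% became 0% of 7 peaks in a window of 20 kb and 0% of 3 peaks in the gene bodies, since its gained peaks lie farther out. The group B share became 62.5% of 8 peaks above percentile 50, and the group D share stayed between 57.1% and 71.1%. With lists of equal size the shared regions with a Halo-Sox2 percentile at least 25 points above the control numbered 7 of 42 (against 8.59% of all) and those at least 25 below 13 (against 26.3%). The Halo-Sox2 start position then fell below that of the control at Sox4 (69.8 against 72.5), Sox11 (65.7 against 67.0) and Sox6 (75.8 against 80.2), and kept its side at the other 4 genes, with Sox21 at 92.2 against 68.6.

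No paired analysis was possible because each group has 1 library. For the same reason no library was left out in turn. The depth behind each list is unknown, so a missing peak does not show closed chromatin.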
